A study of Mus musculus with 10 samples.

Results

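C1q, the recognition molecule of the classical complement pathway, is assembled from the A, B and C chains encoded by C1qa, C1qb and C1qc. The levels of these 3 genes were followed in macrophages taken from 6 tissues of the mouse and in macrophages derived from bone marrow in culture. The members were all probes that the array annotation gives the symbols C1qa, C1qb or C1qc. Each gene had 1 probe (ILMN_2776431 for C1qa, ILMN_2619620 for C1qb and ILMN_2715840 for C1qc), so 3 of 17711 named genes on the array were members, and all 3 passed the filter on detection. They were chosen by name and not by their values.

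Macrophages are a main source of C1q, unlike most complement proteins, which the liver supplies to the blood. A trimer of 1 A, 1 B and 1 C chain forms a collagen-like stalk with a globular head, and the complete molecule binds antibody on its target, microbial surfaces and apoptotic cells. Bound C1q activates the proteases C1r and C1s, which start the complement cascade, and C1q on dying cells also helps phagocytes to take them up.

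The study measured RNA with Illumina bead arrays, on which beads carry gene-specific probes, and 10 samples had an array each. Every sample came from untreated male C57BL/6 mice of an inbred strain, aged 8-10 weeks. Alveolar macrophages (of the lung airspaces), Kupffer cells (of the liver) and splenic red pulp macrophages had 1 array each. The macrophages of the peritoneal cavity, the small intestine and adipose tissue were measured on 2 arrays per group. Bone marrow-derived macrophages (BMDM) had 1 array, and they differ from the others in being a product of 7 days of culture with M-CSF, the growth factor for macrophages. The way the tissue cells were isolated is not described in the labels. The labels do not say whether paired arrays came from separate animals, so the spread behind each p-value may be only technical, and the number of arrays limits the precision. For the 4 groups with 1 array, the spread was taken from the 3 groups with 2.

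The arrays differed in brightness before normalization. Median signals were 89.8 to 107.9 intensity units on 5 arrays (alveolar, Kupffer, splenic, BMDM and peritoneal replicate 1) and 135.7 to 166.5 on the other 5 (those of intestinal and adipose macrophages with peritoneal replicate 2). Only the peritoneal group had an array in each set, so values within a set are given beside some of the results they touch. Of 12 pan-macrophage marker genes tested, 11 were detected on the alveolar array and 11 or 12 in each other group. Their summed normalized level was 120006 on the alveolar array, within the range of 103460 to 147997 on the other arrays. The 5 tested markers of alveolar macrophages were all detected on the alveolar array, with a summed level of 26952 there and at most 3154 elsewhere. Taken singly, Marco, Itgax and Pparg were about as high in another group. Their log2 levels were 10.52, 10.24 and 11.72 on the alveolar array, against 10.39 (Kupffer), 10.55 (intestinal) and 11.32 (splenic).

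The chain genes lie side by side on the same strand of mouse chromosome 4. The sequences before the annotated starts of C1qb and C1qc are shown because the chains were high and low in the same groups. They are RefSeq sequence of build GRCm38.p6, read 5′ to 3′ on the gene's own minus strand and ending at the base before the gene, with capitals for matches to the motifs described next. The promoter of C1qa is not shown here.
C1qb promoter, chr4:136886201-136886450: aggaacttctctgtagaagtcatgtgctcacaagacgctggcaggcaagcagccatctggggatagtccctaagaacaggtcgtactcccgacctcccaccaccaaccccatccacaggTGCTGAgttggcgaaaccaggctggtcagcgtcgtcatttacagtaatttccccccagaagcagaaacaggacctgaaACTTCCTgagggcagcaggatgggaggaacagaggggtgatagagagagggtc
C1qc promoter, chr4:136892937-136893164: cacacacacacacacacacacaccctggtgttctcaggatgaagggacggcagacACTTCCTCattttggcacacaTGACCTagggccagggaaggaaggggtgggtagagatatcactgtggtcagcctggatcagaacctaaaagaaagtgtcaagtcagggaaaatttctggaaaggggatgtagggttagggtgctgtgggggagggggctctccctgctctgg

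The motifs were searched on both strands, and they were chosen with these windows in view. In the 250 bases before C1qb, the half-site TGCTGA of Maf family factors lay 131 bases before the gene, and 16.1% of 32851 promoter windows of the same length held it. AGGAAGT, an Ets family core with flanks, matched the opposite strand 53 bases before C1qb, and 7.69% of windows held it. In the 228 bases before C1qc, AGGAAGT and the overlapping GAGGAAG, a motif of the Ets family factor PU.1, matched the opposite strand at 173 and 172 bases before the gene, against 6.83% and 9.43% of windows. The nuclear receptor hexamer AGGTCA matched the opposite strand 152 bases before C1qc, and 12.9% of windows held it. TGCTGA had no match in the window of C1qc, and GAGGAAG and AGGTCA had none in that of C1qb. An interferon response element was also searched and matched neither window, against 2.98% and 2.7% of windows of these lengths. A match is a description of letters and shows no binding.

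All 3 chains were near background in alveolar macrophages and far above it in the other 6 groups. On the normalized log2 scale, C1qa had 5.42 on the alveolar array. Its levels were 13.62 and 13.71 on the peritoneal arrays, 14.35 in Kupffer cells, 14.41 in splenic macrophages, 14.33 and 14.18 on the intestinal arrays, 14.39 and 14.48 on the adipose arrays and 12.67 in BMDM. The alveolar array lay below the 9 others, as it did for 13.7% of all transcripts, and the BMDM array was the lowest of those 9. Before normalization, the C1qa probe read 97.8 intensity units on the alveolar array and 4270 to 32312 units on the others.

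C1qb had a log2 level of 5.65 on the alveolar array. It had 14.80 and 14.61 in peritoneal macrophages, 15.04 in Kupffer cells, 14.92 in splenic macrophages, 15.03 and 14.78 in intestinal macrophages, 14.999 and 15.06 in adipose macrophages and 14.03 in BMDM. Again the alveolar array was far below all others and BMDM lay below every other array but the alveolar one. C1qc had a log2 level of 5.07 on the alveolar array. It had 14.32 and 14.92 in peritoneal macrophages, 14.68 in Kupffer cells, 14.91 in splenic macrophages, 14.89 and 14.74 in intestinal macrophages, 15.16 and 15.27 in adipose macrophages and 13.99 in BMDM. The order of the extremes was the same, but the peritoneal arrays lay farther apart for C1qc than for the other chains.

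**Figure D1:**
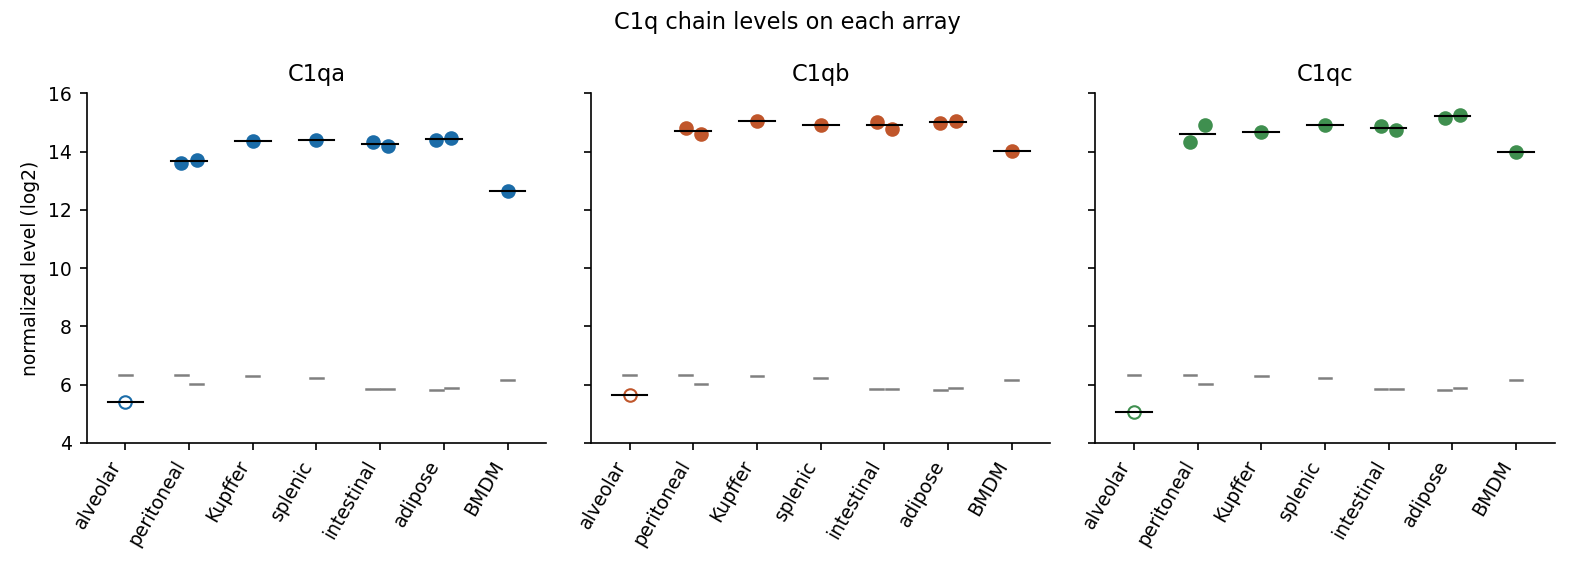
Normalized log2 level of C1qa, C1qb and C1qc on each of the 10 arrays, by group. Points are arrays (hollow where not detected), black lines are group means and grey dashes the lowest level detected on each array. All 3 chains sit between 5.07 and 5.65 on the alveolar array and at 12.67 or above on every other array.

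The chains were not detected on the alveolar array. Their detection p-values there were 0.0599 for C1qa, 0.0368 for C1qb and 0.135 for C1qc, above the limit of 0.01, and they were 0 on each of the 9 other arrays. Detection on all arrays but the alveolar one was found for 214 of 12845 transcripts (1.67%). Because the alveolar probes gave only a bound, levels there had no order among the chains.

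The 3 chains differed among the 7 groups by limma's F test (adjusted p = 1.72e-06 for C1qa, 1.77e-06 for C1qb and 2.95e-06 for C1qc), a test passed by 79.6% of all transcripts. Group means spanned 9.02 log2 units for C1qa, 9.39 for C1qb and 10.14 for C1qc. Without the alveolar array, the spans were 1.77, 1.01 and 1.22, and the F test then gave adjusted p = 0.00101 for C1qa, 0.028 for C1qb and 0.0534 for C1qc. Among the 5 tissues other than lung, the spans of group means were 0.77 for C1qa, 0.33 for C1qb and 0.60 for C1qc.

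Set against the mean of the other 6 groups, alveolar macrophages were lower in all 3 chains, in a comparison where 19.9% of all transcripts were lower. The log2 difference was -8.55 for C1qa (SE 0.16, limma adjusted p = 1.06e-06), -9.12 for C1qb (SE 0.18, adjusted p = 1.06e-06) and -9.63 for C1qc (SE 0.23, adjusted p = 2.57e-06). Bounds were taken on the background-corrected scale, with the lowest detected signal of the alveolar array in place of the undetected one. By these, the other groups were at least 198-fold, 347-fold and 331-fold higher. Without background correction, the log2 differences were smaller, -6.52 for C1qa, -7.28 for C1qb and -7.39 for C1qc. Within the dimmer set of arrays alone, the 4 others averaged at least 172-fold above the alveolar array for C1qa, 330-fold for C1qb and 282-fold for C1qc. Alveolar macrophages were also lower than BMDM, where 17.3% of transcripts were lower, by at least 80.5-fold for C1qa, 207-fold for C1qb and 202-fold for C1qc (adjusted p = 5.99e-06, 5.99e-06 and 8.11e-06 in limma).

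Markers of other cells moved with the alveolar group. Of 4 lung epithelial markers tested, 3 were detected on the alveolar array, with a summed level of 4646 there and 47.8 to 113.2 on the other arrays. Of 6 T and NK cell markers tested, 4 were detected on the alveolar array, and their summed level was 4655 there, against 94.8 to 747.2 elsewhere. The median log2 level of these 6 was not highest there, at 6.83, against 6.95 in splenic macrophages, where 5 were detected. Other groups held markers of other cells too, as 4 erythroid markers summed to 55668 on the splenic array. In these bulk samples, fewer cells of a type and less RNA per cell cannot be told apart, and the part of such cells in the C1q levels was not tested.

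Relative to BMDM, C1qa and C1qb were higher in all 5 tissues other than lung, and C1qc passed in 3 of them. Kupffer cells minus BMDM gave a log2 difference of 1.69 for C1qa (adjusted p = 0.000893) and splenic macrophages minus BMDM 1.75 (0.000639), where 22.2% and 24.9% of all transcripts were higher. Intestinal and adipose macrophages exceeded BMDM in C1qa by 1.59 (0.000455) and 1.77 (0.000356), in comparisons with 29.9% and 26.1% of transcripts higher. The smallest C1qa difference was that of peritoneal macrophages, 1.00 (0.00476), where 22.2% were higher. Thus C1qa passed the threshold of 0.05 in 5 of 5 tissues, at 2.00-fold to 3.42-fold above BMDM.

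C1qb also passed in 5 of 5 tissues, with smaller differences. They were 0.68 in peritoneal macrophages (limma adjusted p = 0.0324), 1.01 in Kupffer cells (0.0119), 0.89 in splenic (0.0176), 0.88 in intestinal (0.00964) and 1.00 in adipose macrophages (0.00639), each minus BMDM. C1qc passed in 3 of 5, splenic (0.92, adjusted p = 0.0467), intestinal (0.82, 0.0381) and adipose macrophages (1.22, 0.00927). For C1qc the Kupffer minus BMDM difference was 0.68 with a 95% interval of -0.06 to 1.42 (adjusted p = 0.123), and the peritoneal one was 0.62 with an interval of -0.01 to 1.26 (adjusted p = 0.106). Whether the chains differ from each other in these differences was not tested. Before normalization, C1qc read 86.5% and 89.1% of the signal of the brightest probe on the adipose arrays. C1qb read 79.5% and 80.5% of it there, and C1qa 55.9% and 55.2%. Whether signals this near the top of the scale made the C1qb and C1qc differences smaller was not tested. BMDM lay below all 8 arrays of the 5 tissues for each chain, a pattern shown by 24.2% of all transcripts. Within the dimmer set, peritoneal replicate 1 minus BMDM was 0.95 for C1qa, 0.77 for C1qb and 0.32 for C1qc. Intestinal and adipose macrophages had no array in the set of BMDM.

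The C1qc calls against BMDM depended on single arrays. Peritoneal replicates 1 and 2 differed by 0.60 in C1qc (replicate 2 minus 1), against 0.10 in C1qa and -0.19 in C1qb. Without peritoneal replicate 1, the C1qc difference of peritoneal macrophages from BMDM was 0.91 (limma adjusted p = 0.00435), and without replicate 2 it was 0.33. Kupffer minus BMDM passed for C1qc without either peritoneal array (adjusted p = 0.0151 and 0.0132), while leaving out either intestinal or either adipose array raised the adjusted p of the splenic and intestinal C1qc differences above 0.05 (0.0731 to 0.143). The adipose C1qc call was lost without adipose replicate 2 (adjusted p = 0.0526). When the array set was a block in the model, the C1qc differences of intestinal and adipose macrophages from BMDM were 0.22 and 0.62 (adjusted p = 0.464 and 0.0649). The peritoneal C1qb call was also lost without either intestinal or either adipose array (adjusted p = 0.0627 to 0.0661), and the intestinal one without intestinal replicate 1 (adjusted p = 0.0678).

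**Figure D2:**
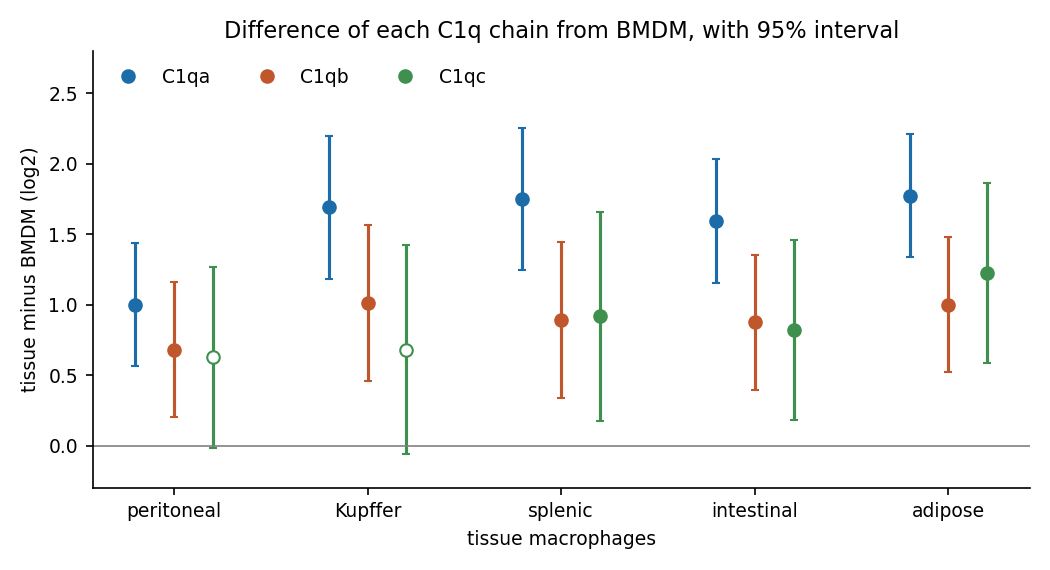
Log2 difference of each of 5 tissues from BMDM for the 3 chains, with 95% intervals from the limma fit. Filled points have an adjusted p under 0.05 and hollow points do not. All differences are above 0, from 0.62 to 1.77, and the hollow points are C1qc in Kupffer cells and peritoneal macrophages.

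Of the 21 pairs of groups, 15 passed the threshold for C1qa, 11 for C1qb and 9 for C1qc. All 6 pairs with alveolar macrophages passed for every chain. Of all transcripts, 17.8% were lower in alveolar than in peritoneal macrophages, 15.9% than in Kupffer cells, 18.7% than in splenic, 24.3% than in intestinal and 23.1% than in adipose macrophages. Among the 5 other tissues, 4 of 10 pairs passed for C1qa and 0 of 10 for C1qb and for C1qc (1 of 10 for C1qc at an unadjusted p under 0.05, and 0 of 10 for C1qb, in limma). The share of all transcripts that passed was 32.1% for the peritoneal pair with Kupffer cells, 39.7% with splenic, 45.8% with intestinal and 35% with adipose macrophages. It was 20.9% for the pair of Kupffer and splenic macrophages, and 33.5%, 34.2%, 39.2%, 38.4% and 30.2% for Kupffer with intestinal, Kupffer with adipose, splenic with intestinal, splenic with adipose and intestinal with adipose macrophages. Without peritoneal replicate 2, 15 of 21 pairs passed for C1qc, of which 5 were among these tissues.

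In C1qa the order of group means was adipose, splenic, Kupffer, intestinal, peritoneal, BMDM and alveolar. Adipose, splenic, Kupffer and intestinal macrophages did not pass against their neighbours in that order, and intestinal minus peritoneal (0.59, limma adjusted p = 0.0165) was the first step that did. Adipose macrophages averaged 14.44 ± 0.06, intestinal 14.26 ± 0.10 and peritoneal 13.67 ± 0.07 (SD, n = 2 each). Adipose minus peritoneal was 0.77 (adjusted p = 0.00703), splenic minus peritoneal 0.75 (0.0167) and Kupffer minus peritoneal 0.69 (0.0282). Each of these 4 calls was lost with median scaling or without some single array. With median scaling, peritoneal minus Kupffer was -0.32 (adjusted p = 0.554) and peritoneal minus splenic -0.26 (0.648). Peritoneal minus intestinal (-0.90, 0.0389) and peritoneal minus adipose (-1.15, 0.0178) still passed with it. The Kupffer call was lost without either intestinal or either adipose array (adjusted p = 0.0588 to 0.0701), the intestinal one without either intestinal array (0.133 and 0.0672) and the adipose one without adipose replicate 2 (0.0572). Within the array sets, adipose minus peritoneal replicate 2 was 0.72 and Kupffer minus peritoneal replicate 1 was 0.74.

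In C1qb the order was Kupffer, adipose, splenic, intestinal, peritoneal, BMDM and alveolar, and in C1qc it was adipose, splenic, intestinal, Kupffer, peritoneal, BMDM and alveolar. These orders mix the array sets. Within the brighter set, intestinal minus peritoneal replicate 2 was -0.11 for C1qc, against the order. With array set as a block, Kupffer minus intestinal was 0.46 for C1qc and Kupffer minus adipose was -0.18 for C1qb, also against it. Between neighbours, only the steps from peritoneal to BMDM and from BMDM to alveolar passed for C1qb, and only that from BMDM to alveolar passed for C1qc. The widest C1qb difference among the 5 tissues was Kupffer minus peritoneal, 0.33 with a 95% interval of -0.14 to 0.81 (adjusted p = 0.257). For C1qc it was adipose minus peritoneal, 0.60 with an interval of 0.08 to 1.12 (adjusted p = 0.0752). This pair passed in limma without background correction (adjusted p = 0.0354), with the authors' series values (0.0373) and with another variance model (0.038). With array set as a block, peritoneal minus splenic (-0.59, 0.0268) and intestinal minus adipose (-0.40, 0.0334) passed for C1qc. Kupffer minus adipose passed for C1qc with median scaling (-1.12, 0.0496). Peritoneal macrophages averaged 14.71 ± 0.13 in C1qb and 14.62 ± 0.43 in C1qc (SD, n = 2 each).

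The log2 ratios between chains spanned 0.79 to 1.01 units over the arrays other than alveolar. Ratios between probes were read only for how they changed from array to array. Over the 9 arrays other than alveolar, the log2 ratio of C1qa to C1qb ran from -1.36 in BMDM to -0.51 in splenic macrophages, and over the 8 arrays of the 5 tissues it was -1.19 to -0.51. The ratio of C1qa to C1qc ran from -1.33 in BMDM to -0.32 in Kupffer cells, with -0.70 and -1.21 on peritoneal replicates 1 and 2. The BMDM array thus had the lowest normalized ratio of C1qa to both other chains. For C1qc, its gap to peritoneal replicate 2 was smaller than the gap between the peritoneal replicates. In the raw signals, peritoneal replicate 1 had a C1qa to C1qb ratio of -1.36, against -1.35 in BMDM.

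The log2 ratio of C1qb to C1qc was 0.04 in BMDM. Its extremes were the peritoneal arrays, 0.49 on replicate 1 and -0.31 on replicate 2, so its whole span fell between replicates of the same group. Across the 6 group means without alveolar macrophages, Pearson's r was 0.98 between C1qa and C1qb, 0.92 between C1qa and C1qc and 0.90 between C1qb and C1qc, as a description of groups that share arrays.

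**Figure D3:**
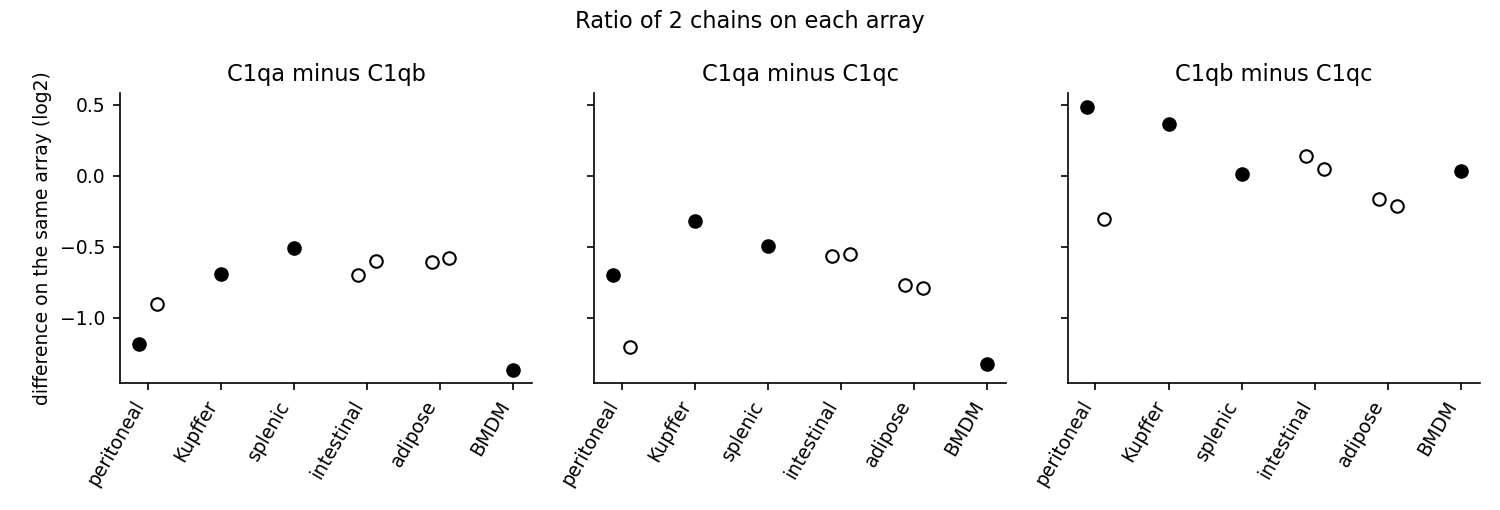
Log2 ratio of each pair of chains on the 9 arrays other than alveolar. Each point is an array, filled for the dimmer and hollow for the brighter set. Ratios of C1qa to the other chains are lowest in BMDM (-1.36 and -1.33), and the C1qb to C1qc ratio has both extremes in peritoneal macrophages (0.49 and -0.31).

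The other genes of the pathway had varied patterns. Of 16 genes of the classical and terminal pathway, 13 were on the array and 6 were tested. All 6 differed among the groups (79.6% of all transcripts by the F test). C1ra, C1rb, C1s1 and C1s2, which encode the proteases C1r and C1s, were detected on no array, nor were Hc (C5), C7 and C8a. C3, C4a and C4b were not analysed here. C2, the protease that C1s cleaves, was not detected in alveolar macrophages, peritoneal macrophages and BMDM, and it had a log2 level of 12.50 in Kupffer cells, 12.80 in splenic, 10.96 in intestinal and 9.61 in adipose macrophages. C6, a component of the membrane attack complex, was detected in the same 4 groups, with 12.87 in Kupffer cells and 12.44 in splenic macrophages. Peritoneal macrophages and BMDM thus had all 3 C1q chains detected and C2 undetected. Alveolar macrophages differed from the mean of the other groups in 3 of the 6 tested genes, with 1 higher and 2 lower (16.3% and 19.9% of all transcripts), and the list median was -0.74, against -0.07 over all transcripts. A gene was tested if 1 array detected it, so in this and the following lists a gene undetected in alveolar macrophages and in other groups may be called lower through its high groups alone. The gene that was higher was C1rl, a C1r-like protease (1.34, limma adjusted p = 0.000869), which did not pass with median scaling (0.49).

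In the lectin and alternative pathways, 5 of 12 genes were tested, all 5 differed among the groups, and alveolar macrophages were higher in 0 and lower in 3 (all transcripts 16.3% and 19.9%, and 79.6% by the F test). Fcna, which encodes the pattern-recognition protein ficolin A, was not detected in alveolar macrophages and had 14.48 in peritoneal, 15.10 in Kupffer, 15.14 in splenic and 14.96 in adipose macrophages. It was low in intestinal macrophages (7.77) and in BMDM (7.71), where the C1q chains were high, and the other 6 groups averaged at least 73.2-fold above the alveolar array. Cfp, which encodes properdin, the stabiliser of the alternative pathway convertase, was lower in alveolar macrophages by -1.50 on the log2 scale (12.85, against 13.27 to 15.04 elsewhere). Cfb, the alternative pathway protease, was 8.63 in alveolar macrophages and 10.22 in peritoneal macrophages and did not pass (0.45, adjusted p = 0.122), although it did without the Kupffer array (0.77, adjusted p = 0.0243).

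Of 14 complement inhibitors, 9 were tested, 9 differed among the groups, and alveolar macrophages were higher in 1 and lower in 4 (all transcripts 16.3% and 19.9%, and 79.6% by the F test). Of the 4, only Cd59a was detected in all 6 other groups. Cd59a, which blocks the membrane attack complex, was not detected on the alveolar array and had 7.15 to 9.73 elsewhere, at least 4.33-fold higher on average. Serping1, the inhibitor of C1r and C1s, was detected in 4 groups, at 6.42 in alveolar, 6.67 in Kupffer, 7.81 in intestinal and 8.16 in adipose macrophages. Its alveolar difference did not pass (0.31, adjusted p = 0.3). Cr1l (Crry), a cell surface regulator of C3, was the 1 inhibitor called higher in alveolar macrophages (0.74, adjusted p = 0.0299), and without the BMDM array its difference was -0.08.

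Of 16 receptors for C1q or C3 fragments, 11 were tested, 11 differed among the groups, and alveolar macrophages were higher in 1 and lower in 3 (all transcripts 16.3% and 19.9%, and 79.6% by the F test). Vsig4, a receptor for C3 fragments, stayed undetected in alveolar macrophages, intestinal macrophages and BMDM, and had 15.06 in Kupffer cells, 13.98 in peritoneal, 11.45 in adipose and 8.53 in splenic macrophages. Cd93, once described as a C1q receptor, had 9.61 in alveolar macrophages, 12.86 in peritoneal macrophages and 13.41 in BMDM (alveolar minus others -1.35, adjusted p = 0.00264), and it was not detected in splenic macrophages. Itgax, the alpha chain of complement receptor 4, was higher in alveolar macrophages by 3.47, with 10.24 there and 10.55 in intestinal macrophages. Lair1, an inhibitory collagen receptor that also binds C1q, had 8.72 in alveolar macrophages and between 6.50 (peritoneal) and 10.26 (BMDM) elsewhere.

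**Figure D4:**
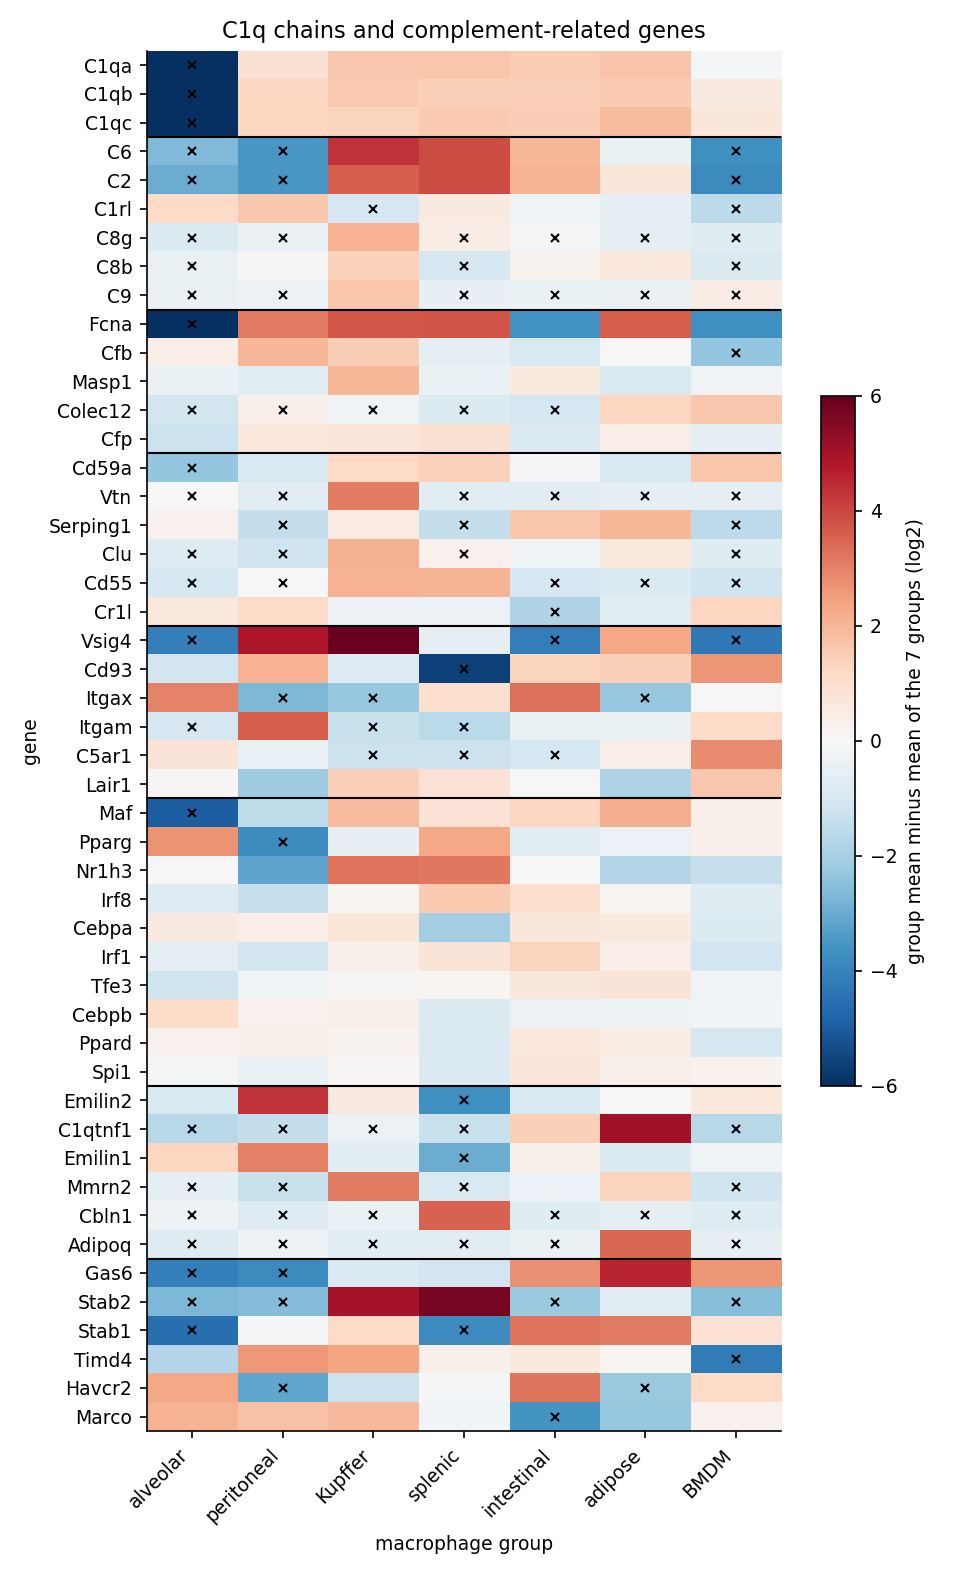
Group mean of each named gene minus its mean over the 7 groups, in log2 units, for the C1q chains and up to 6 genes of each pathway list (all 10 tested factors for the transcription factor list). Colours end at 6 units either way, and a cross marks a gene not detected on any array of the group. The chains, Maf and Fcna have a cross in alveolar macrophages, while C2 and C6 also have one in peritoneal macrophages and BMDM.

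Of 15 transcription factors reported for C1q or for its macrophage programme, 10 were tested and all 10 differed among the groups. Alveolar macrophages were higher in 2 and lower in 4 of the 10 (all transcripts 16.3% and 19.9%, and 79.6% by the F test). Maf (c-Maf), a factor of macrophage identity, was not detected on the alveolar array. Its log2 level was 8.43 in peritoneal, 11.86 in Kupffer, 10.77 in splenic, 11.20 in intestinal and 12.13 in adipose macrophages and 10.24 in BMDM. The other groups averaged at least 21.7-fold above the alveolar array, and the undetected group was the same as for C1q, but the lowest detected group was peritoneal macrophages rather than BMDM.

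Tfe3, a regulator of lysosomal genes, was lower in alveolar macrophages by -1.41 (8.73, against 9.70 to 10.74 elsewhere). Irf8, a myeloid factor, was lower by -0.89 and Irf1, an interferon-induced factor, by -0.62 (adjusted p = 0.034). The Irf1 call was lost without the splenic array (-0.49, adjusted p = 0.0752) and without any 1 intestinal or adipose array (adjusted p = 0.0675 to 0.0784). Pparg, a lipid-sensing nuclear receptor needed by alveolar macrophages, was higher by 3.15, with 11.72 in alveolar and 11.32 in splenic macrophages, and Cebpb was higher by 1.26 (adjusted p = 0.0011).

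Spi1, which encodes PU.1, was 9.63 in alveolar macrophages and 8.88 to 10.48 elsewhere (-0.14, adjusted p = 0.69). Nr1h3, which encodes the oxysterol receptor LXR alpha, had 10.63 in alveolar macrophages, against 13.91 in Kupffer cells, 13.82 in splenic and 7.48 in peritoneal macrophages (-0.05, adjusted p = 0.86). Neither passed in the alveolar comparison. Nr1h3 was higher in alveolar macrophages by 0.60 (adjusted p = 0.0422) without the Kupffer array and by 0.58 (adjusted p = 0.0468) without the splenic array. Cebpa (0.60, adjusted p = 0.129) and Ppard (0.30, adjusted p = 0.352) did not pass either. Cebpa did without either peritoneal array (adjusted p = 0.0286 and 0.0116), and both did when array set was a block (adjusted p = 0.00683 and 0.0357).

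Of 18 partners of apoptotic cell clearance, 14 were tested, all 14 differed among the groups, and alveolar macrophages were higher in 6 and lower in 6 (all transcripts 16.3% and 19.9%, and 79.6% by the F test). Gas6, a ligand that bridges dying cells to TAM receptors, was not detected in alveolar and peritoneal macrophages and had 7.89 to 13.64 elsewhere. Stab1, a scavenger receptor, was not detected in alveolar and splenic macrophages and had 13.29 in intestinal and 13.13 in adipose macrophages. Axl, a TAM receptor, was higher in alveolar macrophages (14.82) than the mean of the others by 1.57 (adjusted p = 0.000395), and Mertk, another TAM receptor, did not pass (12.19 in alveolar macrophages, 0.23, adjusted p = 0.457). Mertk was higher there by 0.70 (adjusted p = 0.0477) without the splenic array.

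Of 27 proteins with a C1q domain outside C1q, 19 were detected on no array and 8 were tested. These 8 differed among the groups, and alveolar macrophages were higher in 2 and lower in 4 (all transcripts 16.3% and 19.9%, and 79.6% by the F test). Of the 4, C1qtnf1, Adipoq and Mmrn2 were undetected in alveolar macrophages and in at least 3 other groups. C1qtnf1, a secreted C1q and TNF related protein, was detected in adipose (11.36) and intestinal macrophages (7.73) alone. Emilin2, an extracellular matrix protein, had 12.84 in peritoneal macrophages and was not detected in splenic macrophages. Adipoq, which encodes adiponectin, was detected in adipose macrophages alone (9.03), where all 3 tested adipocyte markers were detected. The summed level of these adipocyte markers was 820 to 861 on the adipose arrays, 4075 on the alveolar array and at most 94.4 on the others. On the alveolar array only 1 of the 3 was detected, so that sum rests on 1 gene, and Adipoq was undetected (4.77). The median log2 level of the 3 was 5.66 there and 8.27 in adipose macrophages. The part of adipocytes in the Adipoq level was not tested.

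Of the 5 genes on either side of the cluster, Luzp1, Kdm1a, Zbtb40, Wnt4 and Cdc42 were tested. Alveolar macrophages were higher in Luzp1 and lower in Wnt4 (16.3% and 19.9% of all transcripts). Cdc42, a small GTPase, was 12.31 in alveolar macrophages and 11.71 to 12.70 elsewhere (alveolar minus others -0.03, limma adjusted p = 0.892). Kdm1a, a histone demethylase, was 8.88 in alveolar macrophages (-0.05, adjusted p = 0.825), and Luzp1, a leucine zipper protein, was 9.95 there and higher by 0.70 (adjusted p = 0.0142). Wnt4, a secreted Wnt ligand, was detected in intestinal macrophages alone (8.69). It was called lower in alveolar macrophages (-0.63, adjusted p = 0.0235), where its level of 4.72 lay among those of the other groups without detection (4.51 to 5.09).

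Likeness to C1q was measured as Pearson's r over the 7 group means, against the mean of the 3 chains, for 8994 other named genes. The 10 most like were Cmtm7 (0.99), Lrmp (0.98), Prkcb (0.98), Ubfd1 (0.98), Irf9 (0.97), Elp6 (0.97), Oas2 (0.97), Slc11a1 (0.97), Ifi27l2a (0.97) and Il10rb (0.97). Over the 6 groups without alveolar macrophages, their r ran from -0.03 (Ifi27l2a) to 0.88 (Lrmp). Prkcb, a protein kinase C, had 6.63 in alveolar macrophages, 11.09 to 12.13 in the other tissues and 11.16 in BMDM. Slc11a1, a metal transporter of the phagosome, had 9.76 in alveolar macrophages, 13.52 to 14.64 in the other tissues and 13.99 in BMDM. The 5 genes most opposite were Zbtb32, Mdh1b, Phgdh, Nrg4 and Trim29, with r from -0.999 to -0.995, all high in alveolar macrophages.

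Over the 6 group means without alveolar macrophages, the 10 genes most like C1q were Bcor, Cox14, Nlrc4, Tmem127, Zfp36l1, Snx13, Prr12, Zfp451, N4bp2l1 and Lrsam1, and 0 of them were among the first 10. An r above 0.9 was reached by 64 genes (0.712%) over 7 groups, by 178 (1.98%) over 6 groups and by 3 over both. These 3, chosen after their values were seen, were Apoe, a lipid-carrying apolipoprotein, Calhm2, a channel protein, and Ndst2, an enzyme of heparan sulfate synthesis. Apoe had 8.22 in alveolar macrophages, 14.56 to 15.07 in the other tissues and 12.19 in BMDM. Calhm2 was not detected in alveolar macrophages and had 10.40 to 11.20 in the other tissues and 8.29 in BMDM. Ndst2 had 8.58 in alveolar macrophages, 10.22 to 10.43 in the other tissues and 9.50 in BMDM.

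**Figure D5:**
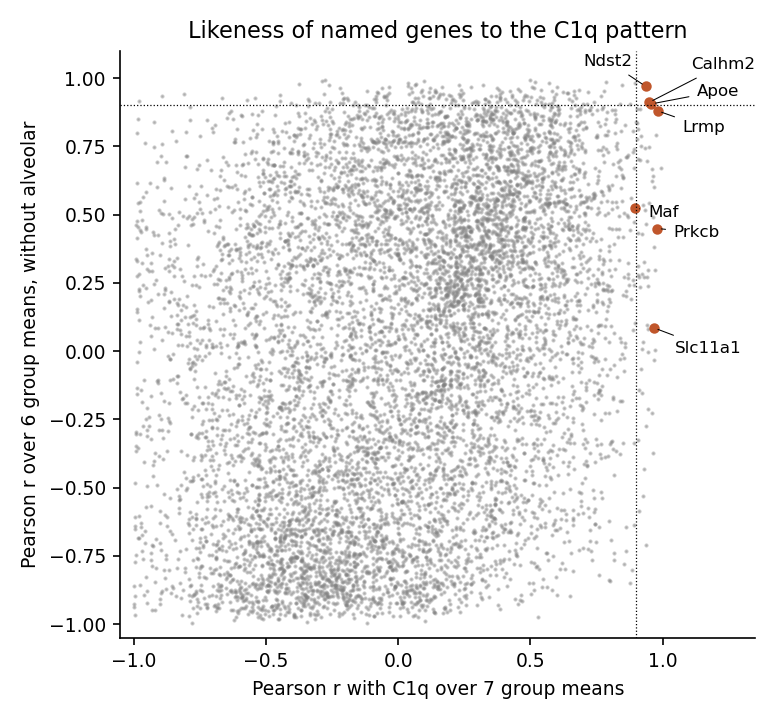
Pearson's r of each of 8994 named genes with the mean of the C1q chains, over 7 group means (horizontal) and over the 6 without alveolar macrophages (vertical), with dotted lines at 0.9. Apoe, Calhm2 and Ndst2 lie above both lines, and Slc11a1 and Prkcb above the first alone.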

How the data were processed

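Macrophage RNA was measured on 10 arrays, with groups taken from the tissue each label names. The deposited table holds, per the file headers, a linear signal intensity for 46632 probes, each with its detection p-value. The authors' series values, also deposited, are linear intensity that appears quantile normalized, by a method not given in the sources used here, and served as an alternative. No per-sample column was left out.

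The function neqc of limma 3.58.1 (R 4.3.3) removed background with help of the detection p-values, applied quantile normalization and took log2 after adding an offset of 16. A gene was its probe with the highest mean. Names came from the platform annotation, where 29976 probes have 1 symbol, 10 several and 16646 none, and 29921 symbols were updated by gene identifier (GRCm38.p6). Tests covered the 12845 transcripts that some array detected (detection p under 0.01), of which 9171 were named genes. The model had 1 mean per group with empirical Bayes variances (3 residual and 4.02 prior degrees of freedom), and Benjamini-Hochberg adjustment ran over all transcripts, with a threshold of 0.05. Tests, log2 differences and correlations used the measured levels, detected or not. Only for folds given as bounds was a gene not detected in a group set there to the lowest normalized level that the array detected. These bounds hold on the background-corrected scale. The model was tested on simulated data.

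The members, lists and comparisons were chosen with earlier results of these data known. The text names the chains, up to 6 genes per list with the widest range among those past the F test, every tested transcription factor, and the genes most like C1q. Genes chosen after their values were seen are Mertk, Axl, the genes beside the cluster and the 3 genes alike over 7 and 6 groups. Promoters were the stretches of the RefSeq windows that lie before the gene, 250 bases for C1qb and 228 for C1qc. Alternatives changed the background correction, scaling, offset, detection filter, probe rule, variance model and blocks, or left out an array.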

Additional observations from a re-analysis of the deposited data

How the results depend on the processing

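Of 714 values recomputed, 678 kept their direction, side of the threshold or size, 24 lost their call, 4 gained one, 8 moved and 0 reversed. Tests were judged by direction and call alone, so the C1qa span counted as kept at 1.77 without the alveolar array, against 9.02. The 714 did not include single pairs among the 5 tissues or single genes other than the chains. Of these genes, for example, Cr1l changed sign without the BMDM array (0.74 to -0.08) and Bcor did with median scaling (0.62 to -0.14). Alveolar minus others passed for each chain under all 19 alternatives, with differences of -8.83 to -6.52 for C1qa, -9.36 to -7.28 for C1qb and -9.80 to -7.39 for C1qc, the smallest without background correction. Median scaling moved the median of all transcripts in that comparison to -0.55, against -0.07, and gave -8.60, -9.36 and -9.55 for the chains. With median scaling, 19.9% of the calls in that comparison were higher, against 45% (2091 higher and 2556 lower). The share higher was 40.7% against 52.5% for alveolar minus BMDM, 82.9% against 56.2% for intestinal minus BMDM and 86.2% against 56.4% for adipose minus BMDM. Under it 2793 transcripts passed for peritoneal, 2033 for alveolar, 2460 for Kupffer and 3151 for splenic minus BMDM, against 5383, 4668, 5501 and 6136. C1qb then gave 1.09 (adjusted p = 0.0571) for Kupffer and 0.92 (0.081) for splenic minus BMDM, and C1qc 0.93 (0.193) for splenic minus BMDM. Without a detection filter C1qc was 0.92 (0.0921) for splenic and 0.82 (0.0759) for intestinal minus BMDM. With array set as a block it was 0.22 (0.464) for intestinal, 0.62 (0.0649) for adipose and 0.68 (0.0133) for Kupffer minus BMDM. By Spearman's rho, 1 of the 10 genes most like C1q stayed on the list. The cause of these changes was not tested.

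Deviations of same-numbered arrays correlated by 0.05, -0.14 and -0.09, so arrays with the same number showed no shared shift. This cannot decide whether they were prepared together, and the peritoneal replicates also lay in different brightness sets. With the replicate block, C1qc was 0.92 (0.0522) for splenic and 0.73 (0.0774) for intestinal minus BMDM, and the C1qa pair of peritoneal macrophages and Kupffer cells was -0.70 (0.0678). With that replicate block, no other C1q call against BMDM, against alveolar macrophages or among the 5 tissues changed. Leaving out 1 array at a time gave C1qb differences from BMDM of 0.57 to 0.78 (peritoneal) and 0.75 to 1.00 (intestinal). It gave C1qc differences of 0.33 to 0.91 (peritoneal), 0.67 to 0.70 (Kupffer), 0.90 to 0.94 (splenic), 0.74 to 0.89 (intestinal) and 1.19 to 1.32 (adipose), 6 to 15 pairs past the threshold and a span of group means of 1.21 to 10.20. Transcripts past the threshold for alveolar minus others ranged from 3532 to 7114, the highest without peritoneal replicate 1. Signal over background limits the alveolar levels, which are bounds, and each of 4 groups rests on 1 array.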
